A study of Mus musculus with 6 samples.

Results

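The genes described here are 40 genes that act in mitosis and at the G2/M transition. They were listed by name and sorted by mitotic role into cyclins and Cdk1, mitotic kinases, spindle checkpoint kinases, kinetochore and centromere proteins, the chromosomal passenger complex, spindle motors and microtubule-binding proteins, central spindle and cytokinesis proteins, ubiquitin-dependent regulators of mitotic progression, transcription factors and chromosome structure proteins. All 40 were found on the array through the RefSeq transcript of their probes, all 40 were tested, and the probe used for each was well above background on all 6 arrays. They are 40 of 32456 genes and unnamed probes that were tested in the series, 17516 of which carry a gene symbol.

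The arrays measured lung RNA from mice with endotoxemia, and the comparison asks how treatment with recombinant antithrombin, a plasma inhibitor of thrombin and other clotting proteases, bears on the lung under that challenge. All 6 animals were male C57BL6 mice, 10 weeks old, that were starved for 16 h and then given lipopolysaccharide (LPS, the bacterial outer membrane product that drives endotoxemia) into the peritoneum at 20 mg/kg. At 3 and 24 h after LPS, 3 mice received saline and 3 received recombinant antithrombin at 750 IU/kg, and lung RNA was taken 30 h after LPS, 1 array per mouse. The controls thus carried LPS and starvation too, and mice without LPS are not analysed here. The lung label could be checked on the arrays: the surfactant genes Sftpc and Sftpb, the alveolar type 1 gene Ager and the club cell gene Scgb1a1 were well above background on all 6 arrays.

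A cell that divides builds up cyclin A and cyclin B, which switch on the kinase Cdk1 and start mitosis. Aurora and Polo-like kinases, motor proteins and microtubule-binding proteins then build the spindle, kinetochores tie each chromosome to it, and the spindle checkpoint holds the cell until every chromosome is attached. Cdc20 and the ubiquitin machinery then destroy cyclin B and let the cell divide, and because most of these genes are transcribed mainly in G2 and mitosis, their RNA in a tissue is widely read as a sign of dividing cells.

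Most mitotic genes gave a higher signal in the antithrombin lungs than in the saline lungs, in every role, with role medians of the log2 difference from 0.48 to 0.78. After normexp background correction the medians of the checkpoint kinases and of the spindle motors were lower, at 0.34 and 0.37 in place of 0.60 and 0.64. The log2 difference (antithrombin minus saline) was positive for 38 of the 40 genes, against 43% of all genes tested, and its median was 0.59, with quartiles of 0.45 and 0.68. Over all genes tested the median was -0.05, with quartiles of -0.25 and 0.17. The 3 genes that were at least 2-fold higher were Ckap2l, Kif15 and Pbk, and 1.5% of all genes were that much higher. After normexp background correction their differences were 0.62, 0.52 and 0.70, so none of the 3 reached 2-fold. Only Nek2, a centrosome kinase, and Ndc80, a kinetochore protein that binds microtubules, had a negative difference.

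In limma's test, 33 of the 40 had an unadjusted p under 0.05 with antithrombin higher, and 8.73% of all genes did. In 34 the 3 antithrombin mice all lay above the 3 saline mice, which held for 10.7% of all genes. After Benjamini-Hochberg adjustment over all genes tested, 0 of the 40 passed 0.05 in limma, with adjusted p-values from 0.144 to 0.854, and across the whole array 1 gene passed as higher and 1 as lower (0.00308% each; 4933411E08Rik and Calcb, named after their values were seen). The size and direction of the differences are therefore given below as measured values, no single gene is called changed, and a p under 0.05 means the unadjusted one. Whole lung was measured, so more dividing cells and more of these RNAs per dividing cell cannot be told apart.

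**Figure D1:**
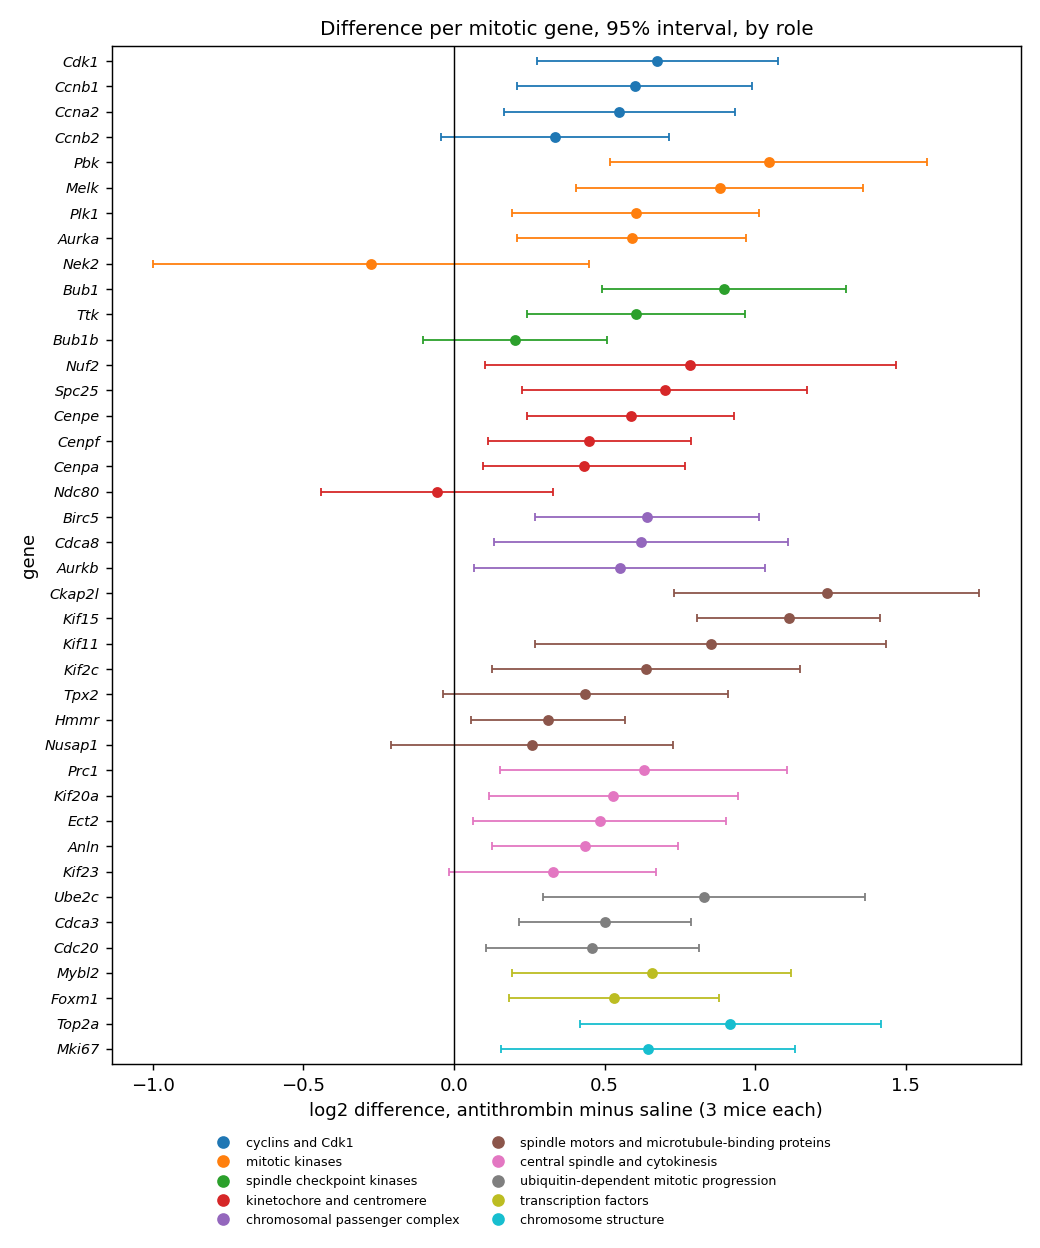
Log2 difference, antithrombin minus saline (3 mice each), for each of the 40 mitotic genes, grouped by role and coloured by it. Points are the fitted differences and bars their 95% intervals; 38 points lie right of 0, and those of Nek2 and Ndc80 lie left of it with intervals that span 0.

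**Figure D2:**
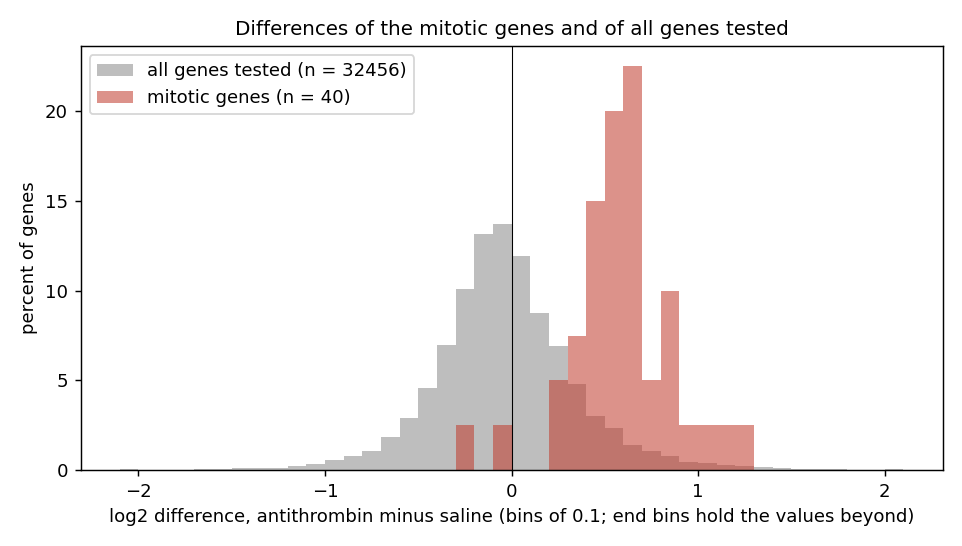
Share of genes in bins of 0.1 of the log2 difference, for all 32456 genes tested in grey and for the 40 mitotic genes in red. The mitotic genes centre on 0.59 and all genes on -0.05.

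Many of the 40 genes also share promoter sequence motifs. Their transcription is known to depend on the CHR element, which the MuvB proteins of the DREAM and FOXM1-MYBL2 complexes bind, and on CCAAT boxes, which NF-Y binds. RefSeq promoter sequences of GRCm38.p6, from 250 bases before to 50 bases after the gene's start, were at hand for 34 of the 40 genes. The letters TTTGAA (CHR) stood on either strand in 25 of these 34 (73.5%), and in 17.9% of all 32851 promoters of the same length. CCAAT stood on either strand in 25 of 34 (73.5%), against 37.4% of all promoters, and both stood together in 21 (61.8%), against 6.95%. The CHR letters lay within 50 bases of the start in 23 members (67.6%), and in 4.94% of all promoters. In Melk, Nuf2, Birc5, Nusap1 and Mybl2 neither was in the window.

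The 120 bases before the start are printed for 8 members, with matches to either motif, on either strand, in capitals: CHR reads TTTGAA or, on the other strand, TTCAAA, and the CCAAT box reads CCAAT or ATTGG. They show the genes with the largest differences among those with a promoter sequence (Ckap2l, at chr2:129297213-129297332, minus strand; Kif15, at chr9:122950961-122951080, plus strand; Top2a, at chr11:99024190-99024309, minus strand), 2 further genes with differences over 0.8 (Kif11, at chr19:37376262-37376381, plus strand; Ube2c, at chr2:164769809-164769928, plus strand), the core pair Cdk1 (at chr10:69352913-69353032, minus strand) and Ccnb1 (at chr13:100786487-100786606, minus strand), and Nek2 (at chr1:191821353-191821472, plus strand), which read lower in the antithrombin mice.
Ckap2l: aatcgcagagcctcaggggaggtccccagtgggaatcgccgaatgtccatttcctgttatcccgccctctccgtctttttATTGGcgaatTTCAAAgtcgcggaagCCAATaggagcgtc
Kif15: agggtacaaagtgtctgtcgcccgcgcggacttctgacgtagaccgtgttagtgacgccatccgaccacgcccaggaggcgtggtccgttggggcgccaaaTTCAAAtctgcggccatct
Kif11: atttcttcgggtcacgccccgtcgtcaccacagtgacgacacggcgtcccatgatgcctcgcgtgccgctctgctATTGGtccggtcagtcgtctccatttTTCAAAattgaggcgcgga
Ube2c: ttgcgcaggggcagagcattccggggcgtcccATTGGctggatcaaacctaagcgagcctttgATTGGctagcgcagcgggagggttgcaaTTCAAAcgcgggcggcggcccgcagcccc
Top2a: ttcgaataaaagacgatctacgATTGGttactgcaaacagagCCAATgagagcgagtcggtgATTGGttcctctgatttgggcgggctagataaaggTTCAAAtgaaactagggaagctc
Cdk1: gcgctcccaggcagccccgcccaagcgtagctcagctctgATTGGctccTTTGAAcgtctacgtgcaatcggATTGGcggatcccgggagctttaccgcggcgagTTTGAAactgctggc
Ccnb1: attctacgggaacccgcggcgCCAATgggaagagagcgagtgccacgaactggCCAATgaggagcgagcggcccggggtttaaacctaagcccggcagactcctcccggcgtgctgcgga
Nek2: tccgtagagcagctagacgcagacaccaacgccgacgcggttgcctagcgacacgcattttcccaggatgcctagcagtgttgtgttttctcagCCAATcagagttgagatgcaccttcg

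The Ckap2l stretch holds a CHR match between CCAAT matches on opposite strands, the Kif15 stretch holds a CHR match alone, and the Top2a stretch holds 3 CCAAT matches upstream of 1 CHR match. Cdk1 has 2 of each. The Ccnb1 and Nek2 stretches hold CCAAT matches and no CHR match, although Ccnb1 was higher in the antithrombin mice and Nek2 was lower. Bub1 and Melk, which are not printed, differed by 0.90 and 0.88 and so by more than Kif11 and Ube2c. Bub1 had CCAAT matches and no CHR match in its window, and Melk had neither, so the printed genes are not a ranking. The 25 genes with a CHR match had a median log2 difference of 0.60 (range -0.06 to 1.24), and the 9 without one a median of 0.64 (range -0.27 to 0.90). A match is a run of letters and not a measured binding site, and a missing match says only that these letters are not in this window.

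The genes that drive entry into mitosis were higher in the antithrombin lungs, and 3 of the 4 had an unadjusted p under 0.05 (median log2 difference 0.57). Levels here and below are on a log2 scale set against the 75th percentile of each array's probes, so that 0 is a bright probe of the array, and they can be compared between mice but not between genes. Cdk1, the kinase that starts mitosis, read -1.60, -1.67 and -2.12 in the saline mice and -0.98, -1.25 and -1.13 in the antithrombin mice. Every antithrombin mouse was above every saline mouse, by a log2 difference of 0.68 ± 0.17 (SE; 1.60-fold, 95% interval 1.21 to 2.11; adjusted p = 0.155). Ccnb1, cyclin B1 and Cdk1's partner, read -0.02, 0.01 and -0.49 in saline and 0.42, 0.32 and 0.56 in antithrombin. It too did not overlap between the groups, with a difference of 0.60 ± 0.16 (adjusted p = 0.157). Ccnb2, cyclin B2, read 1.10, 1.25 and 0.74 in saline and 1.46, 1.22 and 1.41 in antithrombin. Here saline mouse 2 reached above antithrombin mouse 2, and the difference of 0.33 ± 0.16 (adjusted p = 0.268) came to 0.19 without saline mouse 3. Ccna2, the cyclin of S phase and early mitosis, lay between them with a difference of 0.55 and no overlap.

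Among the mitotic kinases 4 of 5 were higher with a p under 0.05, and the fifth, Nek2, read lower (median of the 5, 0.60). Pbk, a kinase found in dividing cells, read -2.66, -2.35 and -3.21 in saline and -1.66, -1.81 and -1.61 in antithrombin. The antithrombin mice lay close together and well above all saline mice, 1.05 ± 0.22 higher (2.06-fold, interval 1.43 to 2.97; adjusted p = 0.151). After normexp background correction the difference was 0.70. Melk, another kinase of proliferating cells, read -1.97, -1.49 and -2.11 in saline and -0.75, -1.20 and -0.98 in antithrombin. The groups were again apart, with a difference of 0.88 ± 0.20 (adjusted p = 0.153). Nek2, which separates the centrosomes before the spindle forms, read -1.73, -1.99 and -1.16 in saline and -1.50, -1.76 and -2.45 in antithrombin. Its highest value was that of saline mouse 3 and its lowest that of antithrombin mouse 3, while the other 4 mice lay within the range between them. The difference was -0.27 ± 0.30 (adjusted p = 0.607), and leaving out 1 mouse moved it from -0.48 (without antithrombin mouse 1) and -0.45 (without saline mouse 2) to -0.04 (without saline mouse 3) and -0.0003 (without antithrombin mouse 3). Plk1, the Polo-like kinase of mitotic entry and spindle assembly, and Aurka, the Aurora kinase of the spindle poles, differed by 0.60 and 0.59 with no overlap.

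All 3 checkpoint kinases lay higher in every antithrombin mouse than in any saline mouse, though Bub1b by little. Bub1, which recruits checkpoint proteins to the kinetochore, read -1.80, -1.53 and -2.10 in saline and -0.83, -1.08 and -0.84 in antithrombin. The gap of 0.45 between the groups was wider than the range of the antithrombin mice (0.25) and narrower than that of the saline mice (0.57), and the difference was 0.90 ± 0.17 (1.86-fold, interval 1.41 to 2.46; adjusted p = 0.151). Ttk, the Mps1 kinase that starts the checkpoint signal, read -3.30, -3.37 and -3.71 in saline and -2.68, -2.98 and -2.91 in antithrombin. It differed by 0.60 ± 0.15 with no overlap (adjusted p = 0.155), and by 0.34 after normexp background correction. Bub1b, the BubR1 protein of the complex that blocks Cdc20, read -0.97, -1.10 and -1.04 in saline and -0.62, -0.94 and -0.95 in antithrombin. Antithrombin mice 2 and 3 lay just above the highest saline mouse and mouse 1 lay well above it, so that the difference of 0.20 ± 0.13 (adjusted p = 0.379) came to 0.09 without antithrombin mouse 1.

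Kinetochore and centromere genes were higher in 5 of 6 cases, each with a p under 0.05 and no overlap (median of the 6, 0.52). Cenpe, a kinesin that carries chromosomes to the spindle equator, read 0.26, 0.34 and -0.09 in saline and 0.80, 0.65 and 0.83 in antithrombin. The antithrombin mice lay tightly together above the saline mice, with a difference of 0.59 ± 0.14 (adjusted p = 0.155). Spc25, a subunit of the Ndc80 complex, read 0.81, 0.88 and 0.33 in saline and 1.40, 1.11 and 1.62 in antithrombin. It differed by 0.70 ± 0.20 with no overlap (adjusted p = 0.161). Ndc80 itself, the subunit of that complex that grips the microtubule, read -1.75, -1.24 and -1.30 in saline and -1.50, -1.57 and -1.38 in antithrombin. All 3 antithrombin values lay inside the saline range, and the difference was -0.06 ± 0.16 (95% interval -0.44 to 0.33; adjusted p = 0.854). Its sign turned when either saline mouse 2 (0.04) or saline mouse 3 (0.01) was left out. Nuf2, a further subunit of the same complex, differed by 0.79, with saline mouse 3 far below the other mice at -2.46, and by 0.47 without that mouse. The centromeric histone Cenpa and the kinetochore protein Cenpf differed by 0.43 and 0.45.

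The 3 genes of the chromosomal passenger complex, which corrects faulty attachments and directs cytokinesis, were all higher with no overlap, by closely similar amounts (0.55 to 0.64). Birc5, the survivin subunit, read 2.88, 3.00 and 2.65 in saline and 3.59, 3.23 and 3.63 in antithrombin. Antithrombin mouse 2 was the lowest of its group and still above all saline mice, and the difference was 0.64 ± 0.16 (adjusted p = 0.155). Cdca8, the borealin subunit, read 0.86, 1.14 and 0.42 in saline and 1.64, 1.24 and 1.40 in antithrombin. Its groups were only just apart, since antithrombin mouse 2 lay 0.11 above saline mouse 2, and its difference was 0.62 ± 0.20 (adjusted p = 0.179). Aurkb, the kinase of the complex, read -1.25, -1.36 and -1.81 in saline and -0.62, -1.0 and -1.15 in antithrombin. It differed by 0.55 ± 0.20 (adjusted p = 0.198), and here antithrombin mouse 3 was the lowest of its group.

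Without normexp background correction, spindle motors and microtubule-binding proteins held both the largest differences and some of the smallest. The 7 differences ran from 0.26 to 1.24, with a median of 0.64, or of 0.37 after normexp. Kif15, a kinesin that helps hold the spindle poles apart, read -4.06, -4.05 and -4.28 in saline and -2.89, -3.18 and -2.98 in antithrombin. The groups lay 0.87 apart, against ranges of 0.23 within saline and 0.29 within antithrombin, and the difference of 1.11 ± 0.13 (2.16-fold, interval 1.75 to 2.67) had the smallest adjusted p of the 40 genes (0.144). Ckap2l, a protein of the spindle microtubules, read -3.75, -3.27 and -4.07 in saline and -2.37, -2.63 and -2.38 in antithrombin. Its difference of 1.24 ± 0.21 (2.36-fold, interval 1.66 to 3.35; adjusted p = 0.151) was the largest of the 40. Kif11, the Eg5 motor that pushes the poles apart, differed by 0.85 and Kif2c, a kinesin that takes microtubules apart at the centromere, by 0.64, both with no overlap. Normexp background correction gave smaller differences for these 4 genes: 0.52 for Kif15, 0.62 for Ckap2l, 0.40 for Kif11 and 0.25 for Kif2c. Genes of other roles then ranked higher. Top2a had the largest difference of the 40, at 0.89, and Ube2c, Melk and Spc25 were among those above Ckap2l, at 0.74 each.

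Nusap1, which bundles spindle microtubules around the chromosomes, read -0.92, -1.03 and -1.52 in saline and -0.65, -1.06 and -1.0 in antithrombin. Only antithrombin mouse 1 lay above all saline mice, and the difference was 0.26 ± 0.20 (adjusted p = 0.455). That value came to 0.08 without saline mouse 3 and to 0.13 without antithrombin mouse 1. Tpx2, which activates Aurka on the spindle, overlapped between the groups by 0.05 and differed by 0.44, or by 0.25 without saline mouse 3. Hmmr, a spindle protein and hyaluronan receptor, had no overlap and differed by 0.31 on the probe used. Its other probes gave 0.52 and 0.68, and the mean over its probes gave 0.50.

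The 5 genes that act at the central spindle and in cytokinesis were all higher, 4 with no overlap and a p under 0.05 (median 0.48). Anln, the anillin that scaffolds the contractile ring, read 0.38, 0.29 and 0.02 in saline and 0.75, 0.60 and 0.65 in antithrombin. Every antithrombin mouse was above every saline mouse, with a difference of 0.44 ± 0.13 (adjusted p = 0.166). Prc1, which cross-links the microtubules of the central spindle, read 0.39, 0.70 and -0.05 in saline and 1.07, 0.83 and 1.02 in antithrombin. The saline mice were spread over 0.75 and the antithrombin mice over 0.24, and the difference was 0.63 ± 0.20 (adjusted p = 0.173). Kif23, the motor subunit of centralspindlin, read -1.23, -1.46 and -1.55 in saline and -0.94, -1.29 and -1.03 in antithrombin. Antithrombin mouse 2 lay below saline mouse 1, and the difference was 0.33 ± 0.14 (adjusted p = 0.244). Kif20a, a kinesin that brings kinases to the midzone, and Ect2, the exchange factor that starts furrowing, differed by 0.53 and 0.48.

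The ubiquitin-dependent regulators of mitotic progression were higher in all 3 cases with no overlap (median 0.50). Ube2c, the ubiquitin-conjugating enzyme that works with the anaphase-promoting complex, read -0.27, 0.05 and -0.82 in saline and 0.61, 0.35 and 0.48 in antithrombin. The antithrombin mice sat together above the widely spread saline mice, 0.83 ± 0.22 higher (1.78-fold, interval 1.23 to 2.58; adjusted p = 0.157). Cdca3, which helps to target the mitosis inhibitor Wee1 for destruction, read 1.03, 1.02 and 0.88 in saline and 1.60, 1.32 and 1.53 in antithrombin. Both groups were narrow and apart, with a difference of 0.50 ± 0.12 (adjusted p = 0.155). Cdc20, the activator of the anaphase-promoting complex, read 1.10, 1.00 and 0.65 in saline and 1.44, 1.24 and 1.44 in antithrombin. It differed by 0.46 ± 0.15 with no overlap (adjusted p = 0.176).

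Both transcription factors of the mitotic programme were higher in the antithrombin mice. Foxm1 read -0.74, -0.69 and -1.05 in saline and -0.14, -0.46 and -0.28 in antithrombin. The groups did not overlap, and the difference was 0.53 ± 0.15 (adjusted p = 0.158). Mybl2, the B-Myb protein that joins the MuvB core, read 0.28, 0.76 and 0.07 in saline and 1.20, 0.92 and 0.97 in antithrombin. Saline mouse 2 came close to the antithrombin mice, and the difference was 0.66 ± 0.19 (adjusted p = 0.166).

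Top2a and Mki67, which shape and coat mitotic chromosomes and are used to count dividing cells, were also higher. Top2a, the topoisomerase that untangles sister chromatids, read 0.20, 0.56 and -0.25 in saline and 1.20, 0.96 and 1.11 in antithrombin. The groups lay 0.40 apart and the difference was 0.92 ± 0.21 (1.89-fold, interval 1.34 to 2.67; adjusted p = 0.153). Mki67, the Ki-67 antigen, read 1.94, 2.26 and 1.53 in saline and 2.71, 2.36 and 2.58 in antithrombin. Antithrombin mouse 2 lay only 0.10 above saline mouse 2, and the difference was 0.64 ± 0.20 (1.56-fold, interval 1.11 to 2.19; adjusted p = 0.174).

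**Figure D3:**
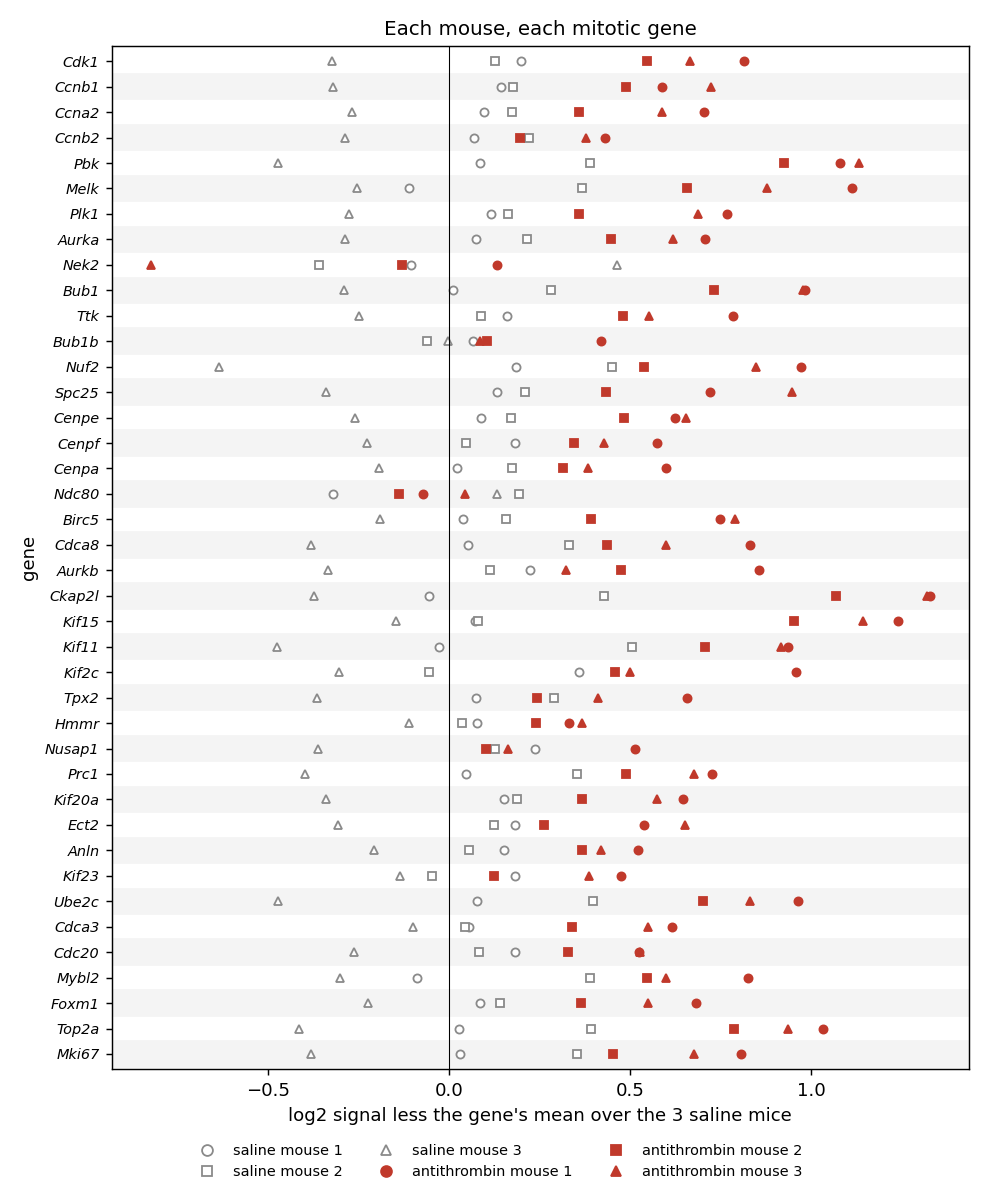
Log2 signal of each of the 6 mice for each mitotic gene, less the gene's mean over the saline mice. Open grey symbols are saline mice and filled red symbols antithrombin mice, with 1 symbol shape per mouse number; saline mouse 3 (open triangles) is the lowest of the 6 mice in 37 of 40 genes, and antithrombin mouse 1 (filled circles) the highest in 30.

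The same mice were high or low across the whole set. Saline mouse 3 was the lowest of all 6 in 37 of 40 genes. Saline mouse 2 was the highest saline mouse in 26, antithrombin mouse 1 the highest of all 6 in 30, and antithrombin mouse 2 the lowest of its group in 37. Averaged over the 40 genes and set against the saline mean, the saline mice read 0.08, 0.19 and -0.27 and the antithrombin mice 0.72, 0.43 and 0.59. On this average the groups did not overlap, and antithrombin mouse 2 lay 0.25 above saline mouse 2. Against the highest saline mouse of each gene, antithrombin mouse 1 was higher in 38 of 40, mouse 2 in 34 and mouse 3 in 37. The saline mice varied more than the antithrombin mice: the median SD of the 40 genes was 0.28 in saline and 0.15 in antithrombin, and over all genes tested it was 0.19 and 0.15.

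Single mice carried weight in the counts. Saline mouse 2 lay on the antithrombin side of the other saline mice on the first principal component over all genes (51.9% of variance), where it read 7.86 against -48.3 and -62.4, and the antithrombin mice read 28.5, 24.9 and 49.5. Without it, 13 of the 40 passed an adjusted p of 0.05 in limma, where 4.65% of all genes passed as higher: Ckap2l, Kif15, Bub1, Melk, Pbk, Top2a, Kif11, Mybl2, Ube2c, Prc1, Cenpe, Mki67 and Aurka. Their differences then ran from 0.67 for Cenpe to 1.45 for Ckap2l. That mouse was the one whose mitotic genes read highest among the controls, and leaving it out is a description of the other 5 mice. With antithrombin mouse 1 left out, 21 of the 40 had an unadjusted p under 0.05 with antithrombin higher, and 6.82% of all genes did. With saline mouse 3 left out, the median difference was 0.44.

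The arrays lay in 2 rows of 1 slide, so the difference could be read within each row. In row 1, with 2 saline and 2 antithrombin mice, 39 of 40 mitotic genes were higher in antithrombin, by a median of 0.42. In row 2, with only saline mouse 3 and antithrombin mouse 3, 38 of 40 were, by a median of 0.91. Row 2 is no separate check of row 1, because it sets 1 mouse against 1. Its saline mouse was the lowest of all mice in 37 of 40 genes, which fixed most of that count beforehand. Over all genes tested, 41.8% were higher in antithrombin in row 1 and 45.4% in row 2, with medians of -0.05 and -0.06.

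**Figure D4:**
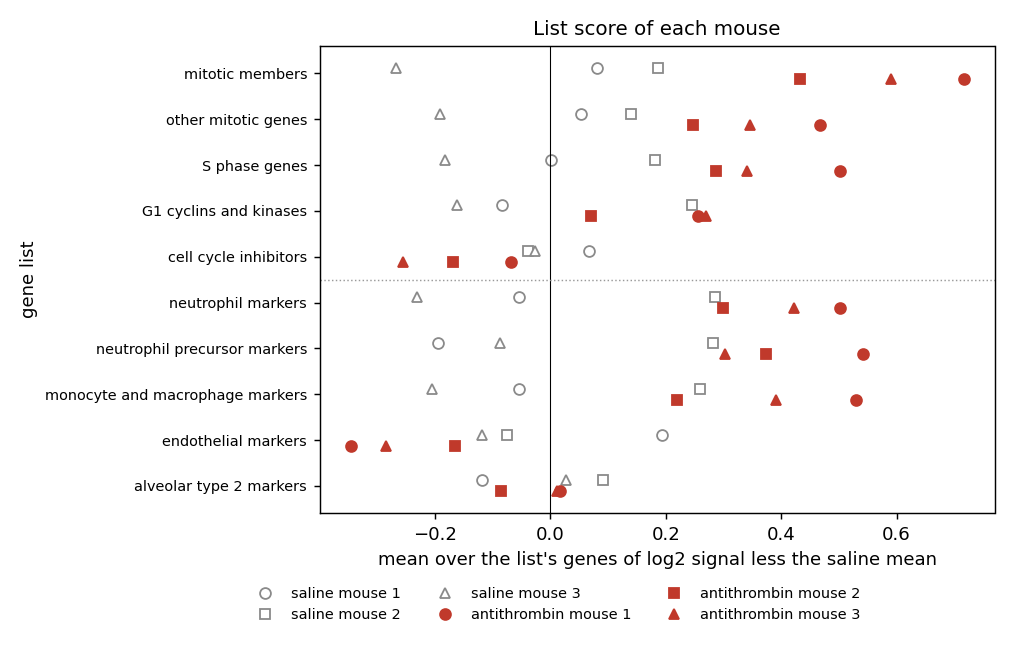
Score of each mouse for each gene list (mean log2 signal over the list, with the mean of the saline mice set to 0), for cell cycle lists above the dotted line and cell type marker lists below it. The antithrombin mice (filled red) lie above all saline mice (open grey) for the 40 mitotic genes (0.43 to 0.72 against -0.27 to 0.19), and, of the marker lists drawn, the neutrophil and neutrophil precursor markers are ordered the same way with narrower gaps.

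Neutrophil, monocyte and some other marker lists were higher in the antithrombin mice too, and their part in the mitotic result was not tested. Beside the counts in this paragraph and the next, 43% of all genes tested were higher in antithrombin. A p under 0.05 with antithrombin higher was seen in 8.73% of all genes. Of 11 neutrophil markers tested, 10 were higher in antithrombin and 5 had a p under 0.05 (Padi4, Cxcr2, Mmp8, Mmp9 and Fpr1), with a median difference of 0.29. Their mean score ran from -0.23 to 0.29 in saline and from 0.30 to 0.50 in antithrombin. S100a8, a calprotectin subunit and an abundant neutrophil RNA, differed by 0.29 (adjusted p = 0.334), and Padi4, which citrullinates histones in neutrophils, by 0.95 (adjusted p = 0.153). Markers of the dividing precursors of neutrophils were mixed. Of 11 tested, 7 were higher and 3 had a p under 0.05 (Gfi1, Camp and Prtn3), with scores of -0.19 to 0.28 in saline and 0.30 to 0.54 in antithrombin. Among their granule genes, Elane, Mpo, Ctsg, Chil3 and the regulator Cebpe differed by 0.13, -0.05, -0.08, -0.05 and -0.02, Prtn3 by 0.44, Ngp by 0.41, Ltf by 1.20 and Camp by 1.21. No array had Fcnb well above background.

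Of 12 monocyte and macrophage markers, 9 were higher and 5 had a p under 0.05 (Cx3cr1, F13a1, Lyz2, Adgre1 and Ms4a6c), with overlapping scores of -0.21 to 0.26 in saline and 0.22 to 0.53 in antithrombin. Cx3cr1, a chemokine receptor of monocytes, differed by 1.60 (adjusted p = 0.155). Ly6c2, Cd14 and Itgam went the other way, with differences of -0.18, -0.11 and -0.07, and Ly6c2 was lower in every antithrombin mouse than in any saline mouse. Of 8 club and ciliated cell markers, 7 were higher and 4 had a p under 0.05 (Dnah5, Tppp3, Ccdc113 and Scgb3a2). Their scores ran from -0.73 to 0.53 in saline and from 0.56 to 0.64 in antithrombin, with no overlap. The lowest score was that of saline mouse 1, in which Scgb3a1 read 0.89, against 6.90 to 8.05 in the other mice. All 8 megakaryocyte and platelet markers were higher and 0 had a p under 0.05 in limma, with overlapping scores of -0.66 to 1.03 in saline and 0.50 to 1.43 in antithrombin.

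The remaining lists overlapped or lay the other way. Scores of alveolar macrophage markers ran from -0.15 to 0.12 in saline and from -0.06 to 0.09 in antithrombin. B cell and NK cell markers were high in antithrombin mouse 3 (0.91 and 1.03) and lay within the saline range in antithrombin mice 1 and 2. Of all 32456 genes tested, 18488 were lower in antithrombin, with a median of -0.05. Of 9 T cell markers 6 were lower, with a median of -0.27. Erythroid scores ran from -0.20 to 0.13 in saline and were -0.06, -0.01 and -0.96 in the antithrombin mice, so that only antithrombin mouse 3 lay below the saline mice, and no array had Rhag well above background. Of 12 endothelial markers 10 were lower, with scores of -0.12 to 0.19 in saline and -0.35 to -0.17 in antithrombin, and the 10 alveolar type 2 markers had a median of -0.02. Which cells carried the mitotic RNAs cannot be told from whole lung.

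Other genes of the cell cycle were set beside the 40. Of 71 further mitotic genes, 64 were higher in antithrombin, against 43% of all genes tested. In limma 31 had an unadjusted p under 0.05 with higher signal in antithrombin (8.73% of all genes) and 0 with lower signal (12.9%). After adjustment 0 passed. The median difference of the 71 was 0.29, and the groups did not overlap in 35 with antithrombin higher (10.7% of all genes). Kif14, a kinesin of the midbody, read -3.23, -2.97 and -3.43 in saline and -2.05, -2.34 and -2.12 in antithrombin, a difference of 1.04 ± 0.15 (adjusted p = 0.151). Ncapg2, a condensin II subunit, differed by 0.67 ± 0.11 with no overlap (adjusted p = 0.151). Troap, a spindle protein, was well above background on all antithrombin arrays and on none of the saline arrays. Its measured fold was at least 1.58, from the antithrombin mean over the lowest well-detected signal of the saline arrays. This bound comes from dim signals and carries no interval.

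The genes of DNA replication, which are used in S phase just before mitosis, gave a like picture with smaller differences. Of 47 listed, 46 were tested and 40 were higher, against 43% of all genes. In limma 29 had a p under 0.05 with antithrombin higher (8.73% of all genes) and 0 with it lower (12.9%). After adjustment 0 passed, and the median difference was 0.34. The mean over these genes was 0.00, 0.18 and -0.18 in the saline mice and 0.50, 0.29 and 0.34 in the antithrombin mice, so that the order of the mice was that of the mitotic genes. Pola1, the catalytic subunit of DNA polymerase alpha, differed by 0.86 ± 0.16 (adjusted p = 0.151). Cdc45, part of the replicative helicase, differed by 0.89 ± 0.19 (adjusted p = 0.151). Neither gene overlapped between the groups.

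Of the upstream regulators, the G1 cyclins and their kinases differed less than the mitotic genes. Among them 1 of 6, Cdk4, had a p under 0.05 in limma (difference 0.40 ± 0.14, adjusted p = 0.194), and the median was 0.16. Of all genes, 8.73% had such a p with antithrombin higher. Cdk6 and Ccnd1 differed by 0.46 and 0.23 (adjusted p = 0.281 and 0.596). Of 13 cell cycle inhibitors, 9 were lower in antithrombin, and of all 32456 genes tested 18488 were. The median of the 13 was -0.23, against -0.05 over all genes. With antithrombin lower, 5 had a p under 0.05, where 12.9% of all genes did. Cdkn2b, the p15 inhibitor of Cdk4 and Cdk6, read 3.01, 2.53 and 3.13 in saline and 2.25, 2.15 and 2.37 in antithrombin, a difference of -0.63 ± 0.18 (adjusted p = 0.161). Cdkn1a, the p21 inhibitor that p53 induces, read 4.02, 4.0 and 4.09 in saline and 3.66, 3.80 and 3.25 in antithrombin. Its groups did not overlap, and the difference was -0.47 ± 0.16 (adjusted p = 0.181). The other 3 were Cdkn1b (-0.30), Ccng2 (-0.39) and Btg1 (-0.30), which were picked out after their values were seen. Rbl1, the p107 pocket protein and itself an E2F target, was the 1 inhibitor with a p under 0.05 in the other direction (0.44 ± 0.15, adjusted p = 0.181).

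Genes of the complexes that act at these promoters were split. Of 12 genes of the DREAM and MuvB complexes and NF-Y beyond Foxm1 and Mybl2, 6 were higher and 6 lower, with a median of 0.05. A p under 0.05 was seen for 3 with antithrombin higher (Tfdp1, Nfya and E2f4; 8.73% of all genes). It was seen for 1 with antithrombin lower (Tfdp2; 12.9% of all genes). The MuvB genes Lin9, Lin37, Lin52 and Lin54 read lower (-0.32 to -0.14) and Rbbp4 differed by -0.004, with no p under 0.05 among these 5, and the NF-Y genes Nfya, Nfyb and Nfyc higher (0.10 to 0.64). Tfdp2, a dimer partner of E2F proteins, read 1.39, 1.13 and 1.72 in saline and 0.70, 0.73 and 0.47 in antithrombin, a difference of -0.78 ± 0.17 (adjusted p = 0.153). Its relative Tfdp1 differed by 0.44 ± 0.14 (adjusted p = 0.168), in the opposite direction. Nfya, the subunit of NF-Y that touches the CCAAT box, differed by 0.64 ± 0.21 (adjusted p = 0.182), with no overlap between the groups.

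The direction of 39 of the 40 genes was the same in every alternative tried, while sizes varied between probes of a gene. Of 21 other detected probes of the members, all 21 had the sign of the probe used. Sizes differed by over 1.5 times from it for a second probe of Ccna2 (0.92), Kif2c (0.30), Spc25 (0.41) and Ttk (1.16), and for both other probes of Hmmr. The 2 remaining probes, of Anln and Mybl2, were well above background on fewer than 3 arrays. Across 18 alternatives of processing and of mice left out, Nek2 was negative in all 18, Ndc80 was positive in 2, and the other 38 genes were positive in all 18. The median over the 40 genes was lowest, at 0.44, when saline mouse 3 was left out and highest, at 0.66, when saline mouse 2 was.

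**Figure D5:**
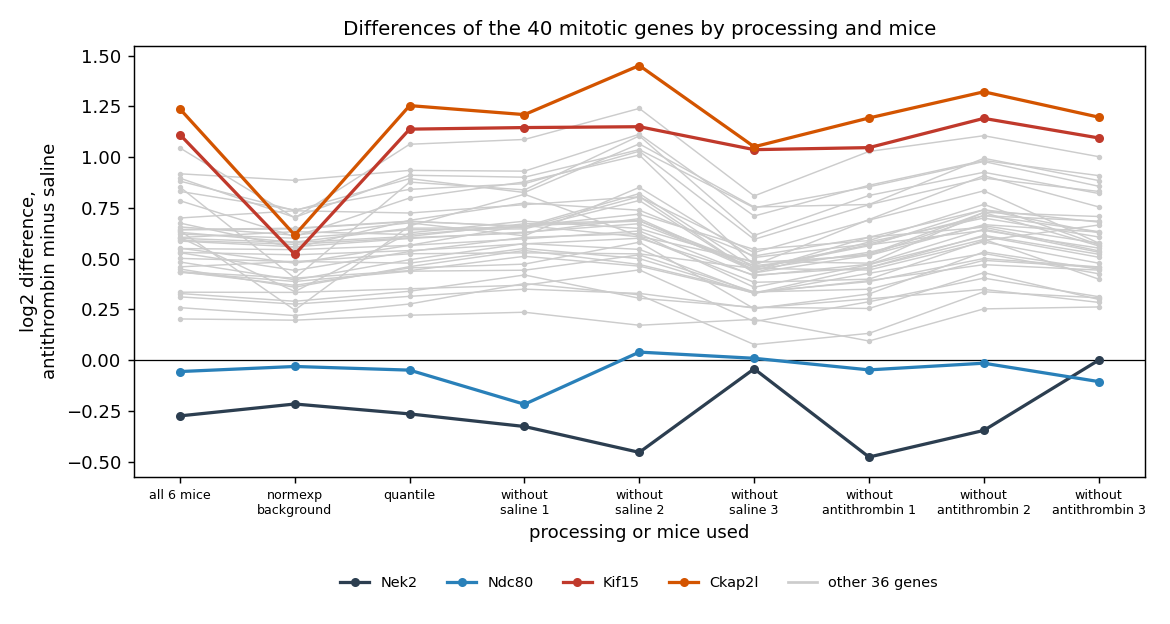
Log2 difference of each of the 40 genes with all 6 mice, after 2 other ways of processing and with each mouse left out in turn. Grey lines are 36 genes and coloured lines are Nek2, Ndc80, Kif15 and Ckap2l; lines join values of 1 gene and are no time course, and Kif15 and Ckap2l drop to 0.52 and 0.62 after normexp background correction.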

How the data were processed

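Lung RNA of 6 mice was hybridised to 1-colour Agilent arrays, 1 per mouse. Groups and mouse numbers came from the sample titles. Spot intensity values were deposited as scanner files; per the file headers they come from Agilent Feature Extraction 10.7.3.1, whereas the submitters' processing notes give 9.1. That difference was not resolved. The deposited value table holds log2 values from the authors, whose baseline per probe is unknown. Differences between arrays in it matched the scanner files within 0.01 for 99.94% of probes after removing a shift per array, and its column medians ran from -0.0372 to 0.077.

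For the main values, the 75th percentile over each array's non-control probes was subtracted from log2 of the processed signal, with control and outlier spots left out and spots of a probe averaged. The 56605 probes were named through RefSeq transcripts (GRCm38.p6), which gave 32994 a symbol and 23611 none. The arrays were designed on another build, so coordinates are given for the printed promoters only. The brightest probe stood for each gene, and genes well above background on at least 3 arrays were tested. No spot was saturated, and 69.8 to 72.1% of probes per array were well above background. The number of arrays limits precision.

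Differences were tested, two-sided, in limma 3.58.1 (lmFit, then eBayes; R 4.3.3), and p-values were adjusted by Benjamini-Hochberg across the 32456 genes and unnamed probes. The procedure was tested on simulated data, where it recovered 50 of 100 genes changed 2-fold and called 10 unchanged genes. A mouse score averages a list's log2 signals after each gene's saline mean is set to 0. A lower bound on a fold sets the brighter group's mean against, per array of the dimmer group, either the lowest value of a well-detected probe or the dim probe's own value, whichever is higher. Promoters came from a RefSeq table. Figures were drawn with matplotlib 3.10.9.

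The members and lists were chosen with earlier results of these data known. Per role, values by mouse are given for the 2 members with the smallest p and the 1 with the largest. Of each other cell cycle list the 3 genes with the smallest p are named, and Cdkn1a, except that 1 gene of the S phase list is not reported here. Alternatives were normexp (offset 50 on the median spot signal), quantile and median scaling, other filters and probe rules, the value table, trended and robust variance, array weights, array row and mouse number as blocks, and each mouse left out. Mouse numbers were not taken as pairs in the main fit. Same-numbered arrays of the 2 groups correlated at 0.987, 0.993 and 0.979, and antithrombin mouse 1 and saline mouse 2 at 0.994.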

Additional observations from a re-analysis of the deposited data

How the results depend on the processing

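Of the 40 mitotic genes, 31 (mouse number as replicate block) to 36 (normexp) had an unadjusted p under 0.05 with antithrombin higher over the 12 alternatives of processing, and 21 to 34 when 1 mouse was left out. The share of all genes with such a p moved too, from 5.97 to 11.8% over the 12. With 1 mouse left out it ran from 5.62 to 13.5%. With the replicate block 0 of the 40 passed an adjusted p of 0.05. None of the 40 passed in any of the 12, nor in 5 of the 6 fits with a mouse left out (0 to 13; 13 without saline mouse 2). Over all genes tested, 2 passed in the fit reported. That count was 1 with normexp, quantile normalisation, median scaling, no filter on dim probes, the filter for all 6 arrays, all probes singly, trended and robust variance, or array row as block. It was 0 with mouse number as replicate block, and 0 to 3420 with 1 mouse left out (3420 without saline mouse 2). Normexp moved 6 of the 40 differences by over 1.5 times. The cause was not tested. With 3 mice per group, and no test of the set as a whole, the counts of calls depend on single mice, and the differences carry standard errors of 0.11 to 0.30.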
